A study of Mus musculus with 3 samples.

Results

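The genes described here are 10 that are expressed mainly in blood vessel endothelium and are grouped as endothelial lineage-restricted genes under ETS control: Egfl7, Ecscr, Mmrn2, Myct1, Plvap, Cd93, Cyyr1, Rasip1, Rhoj and Arhgef15. They were chosen by name, with earlier results of these data known, so counts over the 10 describe the list and do not test it. The arrays carried 14 probes for them, of which 12, at least 1 for each of the 10 genes, were among the tested probes of 19573 genes. The samples were yolk sac cells sorted for VE-cadherin, an adhesion protein of endothelial cells, together with CD45, a surface protein of blood cells. A pair of samples came from Tie-2-Etv2 embryos, in which a Tie-2 Cre transgene switched on an Etv2 transgene, and 1 sample came from control embryos at E10.5, mid-gestation. Age was labelled for the control alone, all samples were of a mixed strain background (B6/CBA and others), and the labels do not say which transgenes the control carried, how many embryos each sample held or whether the 2 Tie-2-Etv2 samples are of different litters. Spread between the Tie-2-Etv2 replicates, and every p-value below, may therefore be technical. The Tie-2 promoter is active in endothelial and in many blood cells, so the labels do not restrict the transgene to a single lineage.

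Etv2 belongs to the ETS family of transcription factors, which bind DNA at a GGAA core. It acts briefly in the embryo, when mesoderm gives rise to the first endothelial and blood cells, and is then shut off, while other ETS factors such as Erg and Fli1 maintain endothelial expression. Endothelial enhancers are dense in ETS sites, some of them fused to a forkhead site in a composite FOX:ETS motif. The 10 genes encode secreted and matrix proteins (Egfl7, Mmrn2), membrane proteins (Ecscr, Plvap, Cd93, Myct1, Cyyr1) and proteins of small GTPase signalling in endothelial cells (Rasip1, Rhoj, Arhgef15).

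The RefSeq promoter table (build GRCm38.p6) matched 5 of the 10 genes with 7 start sites, and the 250 bases before each start were searched on both strands. Shown are the promoter of Egfl7, which holds the FOX:ETS match of the set, and that of Myct1, which holds the most GGAA matches. The promoter of Rasip1 is shown too. By the brightest probe of each gene, Rasip1 had the highest difference among those detected on all 3 arrays. Capitals mark GGAA or its reverse complement TTCC.
Egfl7, chr2:26580833-26581082, plus strand: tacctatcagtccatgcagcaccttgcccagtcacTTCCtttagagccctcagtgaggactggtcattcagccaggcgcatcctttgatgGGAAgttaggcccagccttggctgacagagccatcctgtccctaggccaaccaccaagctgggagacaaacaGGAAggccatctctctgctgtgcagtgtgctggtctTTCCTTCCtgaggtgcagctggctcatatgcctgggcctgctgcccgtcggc
Myct1, chr10:5593478-5593727, plus strand: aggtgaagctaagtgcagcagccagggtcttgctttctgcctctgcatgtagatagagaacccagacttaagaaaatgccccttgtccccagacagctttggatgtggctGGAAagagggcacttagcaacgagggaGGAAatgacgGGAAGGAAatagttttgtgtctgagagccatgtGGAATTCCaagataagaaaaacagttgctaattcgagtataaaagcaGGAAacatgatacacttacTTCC
Rasip1, chr7:45627287-45627536, plus strand: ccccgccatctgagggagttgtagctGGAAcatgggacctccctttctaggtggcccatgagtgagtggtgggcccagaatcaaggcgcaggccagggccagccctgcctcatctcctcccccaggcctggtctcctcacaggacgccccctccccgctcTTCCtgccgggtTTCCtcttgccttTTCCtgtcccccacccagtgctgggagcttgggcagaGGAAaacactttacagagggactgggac

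GGAA was present in all 7 promoters, with 8 matches for Myct1, 5 for Rasip1, 7 for Rhoj, 4 for Cyyr1 and 5, 3 and 1 for the start sites of Egfl7. That motif is common, being found in 93.4% of the 32851 promoters of the table, with a median of 3 matches. The longer ETS motif CCGGAAG was in 0 of the 7 promoters and in 6.91% of all promoters. AACAGGAA, the FOX:ETS composite, which contains GGAA, was in 1 of the 7 promoters and in 2.25% of all, and in Egfl7 it began 92 bases before the start. The E-box CANNTG was in 4 of the 7 and in 66.2% of all, and the GATA motif AGATAA in 1, that of Myct1, and in 9.99% of all. These matches are a description of short windows and not of binding.

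Signals are Agilent intensities, background-subtracted by the scanner software, and levels are given as log2 signal relative to the 75th percentile of the probes detected on all 3 arrays. That percentile was 1199 intensity units on Tie-2-Etv2 replicate 1, 2092 on replicate 2 and 2073 on the control, and 24214, 27014 and 25455 probes were well above background. Etv2, the switched-on gene, was 21.5-fold and 9.30-fold above the control on replicates 1 and 2, and Cdh5, which encodes the sorted antigen VE-cadherin, was 22.1-fold and 6.05-fold above it. Ptprc, which encodes CD45, differed by -0.42 and -0.50 on the log2 scale. Both sort antigens' genes were detected on all 3 arrays. Tek, the gene of the Tie-2 receptor, was 8.20-fold and 4.05-fold above the control.

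Of the 10 genes, 8 were at least 2-fold higher on both Tie-2-Etv2 arrays: Cyyr1, Rasip1, Ecscr, Cd93, Mmrn2, Myct1, Rhoj and Egfl7. Cyyr1 was not detected on the control and was tested only because both Tie-2-Etv2 arrays detected it. Among genes detected on all 3 arrays, which leaves Cyyr1 out, 7 of 9 were 2-fold higher on both, as were 502 of all 17221 such genes. Plvap was above the control on both arrays but 2-fold higher on replicate 1 alone. Arhgef15 was below the control on both arrays, as were 6039 of the 19572 other tested genes. Over all 19573 genes tested, 3.17% were 2-fold higher on both arrays and 5.15% were 2-fold lower on both, against 0 of the 10 genes. The median log2 difference of the 10 genes was 2.26, with 3.0 on replicate 1 and 1.56 on replicate 2. Over all genes the median was 0.067, with 0.083 on replicate 1 and 0.048 on replicate 2. With normexp background correction, which shrinks differences of dim probes, 5 of the 10 genes (Egfl7, Ecscr, Cd93, Rasip1 and Rhoj) were 2-fold higher on both arrays. Of all 19573 genes, 310 were so with that correction.

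In limma's moderated test of the Tie-2-Etv2 pair against the lone control, 0 genes (0%) had an adjusted p under 0.05, the smallest being 0.20, and adjusted p for the 10 genes ran between 0.302 and 0.595. At an unadjusted p under 0.05, 7 of the 10 were higher, where 4.41% of all genes were. Cyyr1 is among the 7, though it was tested only because both Tie-2-Etv2 arrays detected it. The test has 1 residual degree of freedom, taken from the Tie-2-Etv2 pair, and assumes that the control varies like it. The smallest p that an exact permutation of these arrays allows is 0.333. With normexp, 8 of the 10 genes passed limma's adjusted test, all of them higher, where 1.25% of all genes passed and were higher. With no filter on dim probes 2 of the 10 passed, Rasip1 and Cyyr1, where 0.36% of 36084 genes passed and were higher. The p-values of Cyyr1 under both thresholds rest on a control reading that was not above background.

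**Figure D1:**
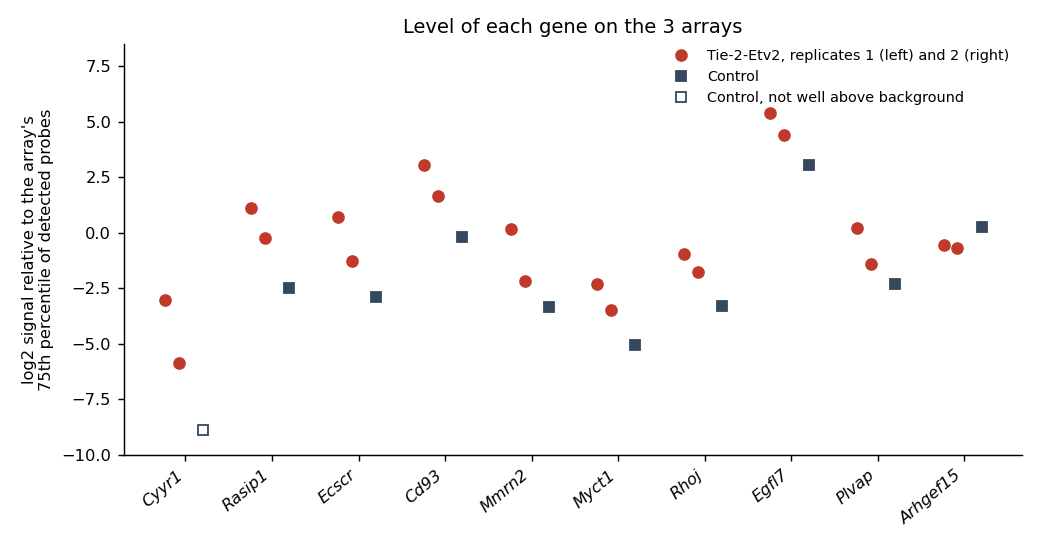
Level of each of the 10 genes on each array, as log2 signal relative to the array's 75th percentile of detected probes, with circles for Tie-2-Etv2 replicates 1 and 2 and a square for the control. The open square marks Cyyr1, not well above background on the control array. In 9 genes both circles lie above the square, replicate 1 being the higher, and in Arhgef15 both lie below it.

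Among the secreted and matrix proteins, Egfl7 encodes an EGF-like protein that endothelial cells secrete. Its probe, on chromosome 2 at 26448142 to 26448201 (plus strand, build mm9 as in the files), read 50180 and 44693 intensity units on Tie-2-Etv2 replicates 1 and 2, and 17233 on the control. On the scaled levels the replicates stood at 5.39 and 4.42 and the control at 3.06, a 5.04-fold and a 2.57-fold difference. The mean log2 difference was 1.85 ± 0.53 (SE, adjusted p = 0.376 in limma). Both replicates lay above the control, and replicate 1 by more.

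An intron of Egfl7 carries miR-126, a microRNA of endothelial cells, and the mature form in the RefSeq table lies within the gene at chr2:26591402-26591423 (GRCm38.p6). It is shown because it shares the primary transcript of Egfl7. Its seed, bases 2 to 8, is in capitals.
mmu-miR-126a-3p: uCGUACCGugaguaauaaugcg

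No probe for it was used here, so the Egfl7 values say nothing of the mature microRNA.

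Mmrn2 encodes multimerin 2, a glycoprotein of the endothelial extracellular matrix that binds CD93. Signals were 1365 and 463 units on the Tie-2-Etv2 replicates and 205 on the control (chromosome 14, 35216855 to 35216914, plus strand, mm9). Levels of 0.19 and -2.18 stood against -3.34, that is 11.5-fold on replicate 1 and 2.24-fold on replicate 2. The replicates were 5.15-fold apart, and the mean difference of 2.34 ± 1.08 (SE, adjusted p = 0.595) had the largest adjusted p of the 10 genes. On replicate 2 with normexp it came to 0.98, just under the 2-fold mark.

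Of the membrane proteins, Cd93 encodes a C-type lectin-like receptor of endothelium that is also found on early blood progenitors and myeloid cells. It read 9783 and 6529 units on the Tie-2-Etv2 replicates and 1796 on the control, from a probe on chromosome 2 at 148262436 to 148262495 (minus strand, mm9). The levels were 3.03 and 1.64 against -0.21, or 9.42-fold and 3.60-fold, with a mean difference of 2.54 ± 0.69 (SE, adjusted p = 0.352). Both replicates were clearly brighter than the control on a strong probe, and normexp left the difference at 2.53.

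Ecscr, a transmembrane regulator of endothelial migration, read 1958 and 867 units against 275 units in the control (chromosome 18, 35872762 to 35872821, minus strand, mm9). Its levels of 0.71 and -1.27, against -2.91, gave 12.3-fold on replicate 1 and 3.12-fold on replicate 2. The mean difference was 2.63 ± 0.92 (SE, adjusted p = 0.472). The gap between the replicates, 3.94-fold, was larger than the step from the control to replicate 2.

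Myct1 encodes a membrane protein known in the mouse as an Etv2 target. It has 2 probes on chromosome 10, and both lay above the control on both arrays. In mm9 they lie on the minus strand, whereas the promoter shown above is on the plus strand of GRCm38.p6. Their positions in the transcript rise as the mm9 coordinates fall, so in mm9 the transcript also runs on the minus strand. The one at 4741994 to 4742053, 475 bases into the transcript, read 246 and 189 units on the Tie-2-Etv2 replicates and 62.6 on the control, a mean log2 difference of 2.17 ± 0.61 (SE, adjusted p = 0.365). The other, at 4740457 to 4740516 and 2012 bases into the transcript, read 316 and 156 units against 28.8 units, a difference of 3.34 ± 0.86 (SE, adjusted p = 0.339). The fold was thus 6.79 and 2.99 with the first probe and 19.0 and 5.39 with the second, in the same direction and unequal in size. With normexp the log2 difference of the first probe was 1.49 in the mean and 0.97 on replicate 2, the latter just under the 2-fold mark.

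Plvap encodes the protein of the diaphragms that close endothelial caveolae and fenestrae, and it too has 2 probes, on chromosome 8 (minus strand, mm9). The brighter, at 74021877 to 74021936, read 1396 and 789 units on the Tie-2-Etv2 replicates and 423 on the control, or 5.71-fold and 1.85-fold after scaling, with a mean difference of 1.70 ± 0.78 (SE, adjusted p = 0.591). The dimmer, at 74030739 to 74030798, read 145 and 125 units against 99.4 units, or 2.53-fold and 1.24-fold, with a difference of 0.83 ± 0.55 (SE, adjusted p = 0.758). Replicate 2 stayed under 2-fold on both probes.

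Cyyr1, a cysteine and tyrosine-rich membrane protein gene of little-known function, was the only one of the 10 not detected on the control array. Its probe (chromosome 16, 85456577 to 85456636, minus strand, mm9) read 146 and 35.5 units on the Tie-2-Etv2 replicates, well above background on both, and 4.39 units, not above it, on the control. Against the lowest signal detected on the control array, Cyyr1 was 18.2-fold higher on replicate 1 and 2.55-fold higher on replicate 2. In the mean of both it was 6.82-fold higher (adjusted p = 0.378 in limma for the measured values). That lowest signal is not a strict detection limit, so these folds are not firm lower bounds. The measured means were -4.46 ± 2.01 (SD, n = 2) and -8.88, a log2 difference of 4.42. With normexp the difference was 1.44 in the mean, 2.30 on replicate 1 and 0.43 on replicate 2, the last of them under 2-fold. The median of the 10 genes was 2.26 also with the Cyyr1 control set to that lowest detected signal. Cyyr1 lay above the median either way, so this change could not have moved it.

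Among the proteins of small GTPase signalling, Rasip1 encodes a Rap1 effector needed in the mouse for vascular lumen formation. Its probe on chromosome 7 at 52894134 to 52894193 (plus strand, mm9) read 2625 and 1775 units on the Tie-2-Etv2 replicates and 365 on the control. Levels of 1.13 and -0.24 against -2.51 put replicate 1 at 12.5-fold and replicate 2 at 4.82-fold above the control. The mean difference of 2.95 ± 0.68 (SE, adjusted p = 0.302) was the highest of the 9 genes detected on all 3 arrays, with the smallest adjusted p of the 10, and ranked 123 from the top of all tested genes. These ranks use the brightest probe of each gene. The dimmer Myct1 probe, also detected on all 3 arrays, had a higher difference, 3.34.

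Rhoj, which encodes a small GTPase of endothelial cells, has 3 probes on chromosome 12 (plus strand, mm9). The probe to the RefSeq transcript, at 76501927 to 76501986, read 610 and 614 units on the Tie-2-Etv2 replicates and 210 on the control, which after scaling was 5.03-fold and 2.90-fold. Its mean difference was 1.93 ± 0.47 (SE, adjusted p = 0.324), with the closest agreement between replicates of the 9 higher genes, at 1.73-fold. The other 2 probes, designed to a cDNA clone and located at 76496686 to 76496745 and 76498861 to 76498920, read 2.33 to 3.27 units and were not above background on any array.

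**Figure D2:**
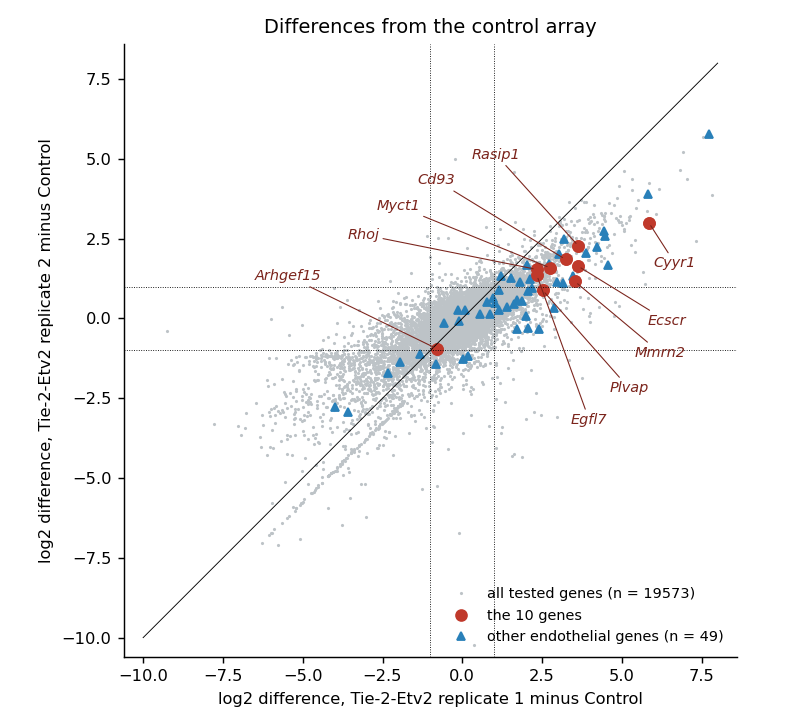
Log2 difference from the control on Tie-2-Etv2 replicate 1 (horizontal) and replicate 2 (vertical) for 19573 tested genes in grey, 49 other endothelial genes as triangles and the 10 genes as labelled circles. Dotted lines mark 2-fold and the solid line equal differences. Of the 10 genes, 8 lie past both upper 2-fold lines and below the line of equality, Plvap passes the line of replicate 1 only, and Arhgef15 lies in the lower left.

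In 9 of the 10 genes the difference was larger on replicate 1 than on replicate 2, the ratio of the 2 folds running from 1.73 in Rhoj to 7.16 in Cyyr1. Of the 620 genes that were 2-fold higher on both arrays, 551 (88.9%) also lay further from the control on replicate 1, as did 67.2% of all tested genes. Spike-in probes, added RNA of known amount, were 0.20 higher on replicate 1 and -0.04 apart on replicate 2 in log2 terms, relative to the scaling used. Scaling on them instead lowered the median of the 10 genes to 2.13 and left 8 of them 2-fold higher on both arrays.

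Arhgef15, a guanine nucleotide exchange factor of vascular cells, stood apart from the other 9. Its single probe (chromosome 11, 68757516 to 68757575, minus strand, mm9) read 822 and 1291 units on the Tie-2-Etv2 replicates and 2469 on the control. Levels were -0.54 and -0.70 against 0.25, a mean log2 difference of -0.87 ± 0.33 (SE, adjusted p = 0.495). Both replicates lay below the control, by 0.80 and 0.95, and they were closer to each other than in any other of the 10 genes.

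The probe of Arhgef15 ends in a simple repeat, which is shown because other probes with such repeats had differences close to its own. Its last 30 bases are given with an unbroken run of 20 alternating G and T bases in capitals.
Arhgef15 probe end, chr11: gctgaatgtgGTGTGTGTGTGTGTGTGTGT

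No other probe of the 10 genes had such a run longer than 4 bases. Among the other tested genes, 62 had a probe with a run of 18 or more bases. Their median log2 difference was -0.82, with -0.76 on replicate 1 and -0.86 on replicate 2, and 61 of the 62 were below the control on both arrays. The quartiles were -0.85 and -0.76, and the SD was 0.125, where all other tested genes had an SD of 0.95. The difference of Arhgef15, -0.87, lay within the range of these genes, -0.94 to -0.023, and a little below their lower quartile. Its control level of 0.25 was under their median of 2.97.

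The pattern followed the length of the run. With 12 to 17 bases (55 genes) the median difference was -0.79, with 8 to 11 bases (140 genes) -0.16 and with 7 or fewer (19315 genes) 0.070. Control levels had medians of 2.97, -0.036, -2.95 and -2.69 in the same order, from the longest runs to the shortest. Probes with a run of 12 or more alternating C and A bases, the complementary repeat, had a median difference of 1.31 over 55 genes, 28 of them 2-fold higher on both arrays. The repeat was looked for after the values were seen, and its part in the signal of the Arhgef15 probe was not tested.

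**Figure D3:**
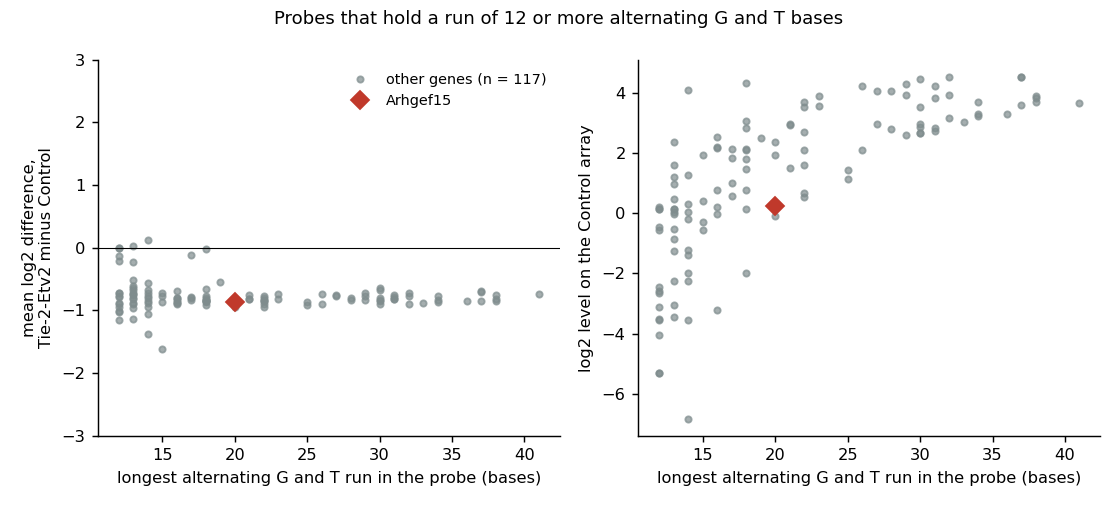
Mean log2 difference, Tie-2-Etv2 minus control (left), and log2 level on the control array (right), against the longest run of alternating G and T bases in the probe, for the other 55 genes with a run of 12 to 17 and 62 with a longer one (circles) and Arhgef15 (diamond). Differences gather close to -0.82 at 18 bases or more while the control level climbs with run length. Arhgef15 lies within the range of both, but its control level of 0.25 is toward the low end for runs of 18 or more, whose median was 2.97.

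Other endothelial genes lay on both sides of the control. Of 55 listed, 49 were tested, and 19 were 2-fold higher on both arrays, 5 were 2-fold lower and 25 were neither. Over all tested genes 3.17% were higher and 5.15% lower. Sox18, Flt4 and Sox17, among those higher, were not detected on the control. They were tested only because both Tie-2-Etv2 arrays detected them. Among genes detected on all 3 arrays, 16 of the list were 2-fold higher on both, as were 502 of all 17221 such genes. The median difference of the 49 was 1.04 (1.73 on replicate 1, 0.55 on replicate 2). On replicate 1 alone 33 were 2-fold higher, on replicate 2 alone 19, and with normexp 12 on both. In the same order, 1671, 753 and 310 of all 19573 genes were. Ranked by the smaller of their 2 differences among genes detected on all 3 arrays, which leaves out Sox18, Sox17, Flt4, Cgnl1 and Stab2, the highest 4 were Notch4 at 4.44 and 2.74, Cdh5 at 4.46 and 2.60 (the sorted antigen), Shank3 at 3.18 and 2.48 and the receptor phosphatase gene Ptprb at 4.22 and 2.24. By the same ranking the lowest 4 were Lyve1, a hyaluronan receptor of lymphatic endothelium and macrophages, at -3.98 and -2.76, Nrp1 at -2.32 and -1.72, Ets2 at -1.94 and -1.36 and Vwf at -1.33 and -1.13 (differences on replicates 1 and 2). None of the 49 passed limma's adjusted test, and 16 higher and 5 lower had an unadjusted p under 0.05. Of all 19573 genes, 863 higher and 1245 lower did.

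ETS factor genes were mixed as well. Of 9 tested, Etv2 and Erg were 2-fold higher on both arrays and Ets2 was 2-fold lower, where 3.17% and 5.15% of all tested genes were. Etv2 is the switched-on gene, and Erg and Ets2 were already counted among the other endothelial genes. Erg, an endothelial ETS factor, stood at 2.02 and 1.67 on replicates 1 and 2 (adjusted p = 0.262 in limma), and Fli1 at 1.15 and 0.25 (adjusted p = 0.790). The myeloid factor Spi1 was at -1.07 and -0.08 (adjusted p = 0.866).

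The genes next to the 10 on their chromosomes lay on both sides of the control. The nearest tested protein-coding gene on each side, 20 in all, had a median log2 difference of 0.047 within a range of -2.60 (Bmpr1a, next to Mmrn2) to 1.25 (Car11, near Rasip1). None of the 20 was 2-fold higher on both arrays, and 2 were 2-fold lower, Bmpr1a and App. Over all tested genes 3.17% were higher and 5.15% lower, and among 20 genes counts this small cannot be told apart from those shares. Notch1, beside Egfl7, was at 0.96 and 0.63, and Thbd, an endothelial gene beside Cd93, at 0.11 and -0.45 on replicates 1 and 2.

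Markers of other cell types differed along with the 10 genes. For the counts that follow, 3.17% of all tested genes were 2-fold higher on both arrays and 5.15% were 2-fold lower. Of 14 macrophage markers 13 were tested (Cd163 was not), and 13 were 2-fold lower on both arrays (median -4.30), with a summed level, in multiples of the array's 75th percentile, of 5.01 and 17.3 on the Tie-2-Etv2 replicates and 74.6 on the control. Visceral endoderm markers were lower in 10 of 12 (median -2.83, summed level 6.82 and 18.1 against 39.9 in the control). Erythroid markers were lower in 7 of 11 tested of 12 (median -2.09, sum 8.64 and 12.4 against 43.7), and mesenchyme and mural markers in 6 of 9 (median -3.69, sum 0.20 and 0.163 against 1.51), with Cspg4, Pdgfra and Rgs5 not above background on any array. Granulocyte markers were 2-fold higher in 4 of 9 and lower in 0 (median 1.18, sum 61.7 and 63.7 against 28.0, Ngp not above background anywhere). Megakaryocyte and platelet markers were higher in 3 and lower in 3 of 12, with a median of -0.075 and sums of 8.49 and 8.65 against 9.09. The part of these markers in the differences of the 10 genes was not tested, and in bulk RNA more cells of a type and more RNA per cell cannot be told apart.

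**Figure D4:**
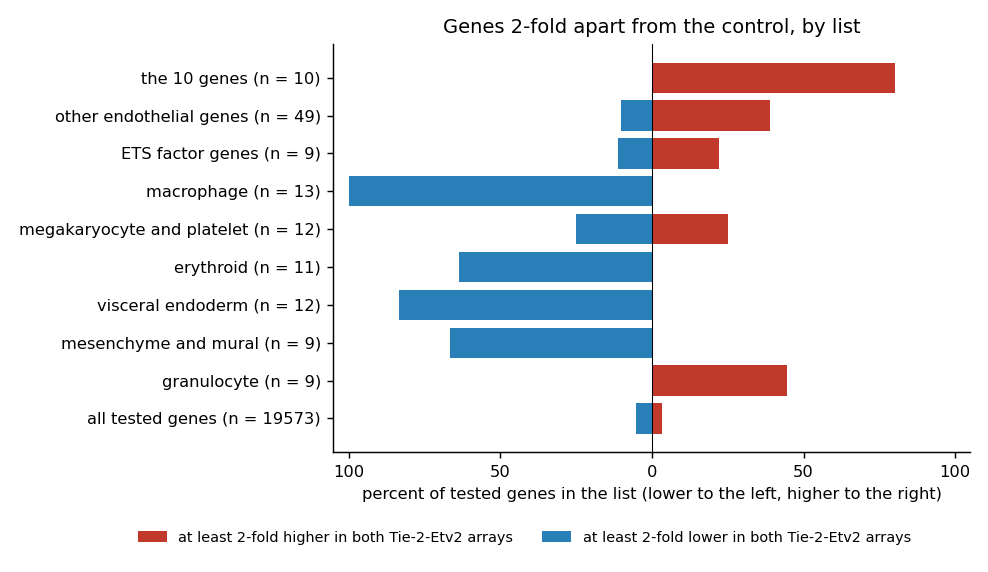
Percent of tested genes in each list that were at least 2-fold higher (to the right) or lower (to the left) on both Tie-2-Etv2 arrays than on the control. The 10 genes have 8 higher and 0 lower, the macrophage markers 13 of 13 lower, and all 19573 tested genes 3.17% higher and 5.15% lower.

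**Figure D5:**
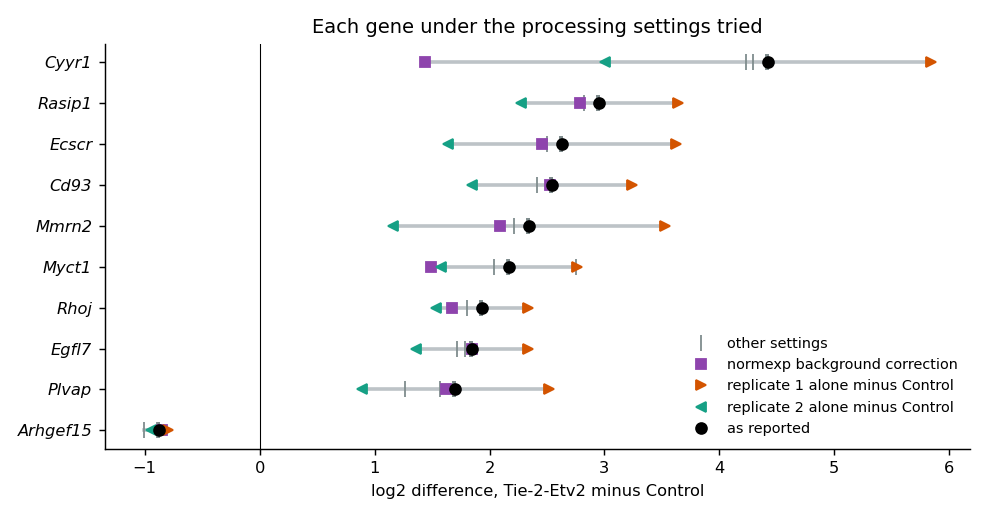
Mean log2 difference, Tie-2-Etv2 minus control, of each of the 10 genes as reported (black) and under the other processing settings, with each replicate alone as triangles and normexp as squares. All values of 9 genes lie above 0 and all of Arhgef15 below it, and Cyyr1 has the widest range, 1.44 to 5.84.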

How the data were processed

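RNA of VE-cadherin+ CD45+ yolk sac cells was labelled with Cy3 and hybridised to 1-colour Agilent arrays of design 028005, 1 per sample (2 Tie-2-Etv2, 1 control). The authors obtained intensity values with Feature Extraction, 10.7 per the submitters' processing notes and 10.7.3.1 per the file headers, with background subtraction and detrending within each array and no scaling between arrays. Per the headers all 3 arrays share 1 slide and 1 scan time, so neither separates the groups. The authors also deposited log2 values with no statement of scale or centring. Array-to-array differences in it equalled those of log2 intensity apart from 1 constant per array (0.756 and -0.016), within 0.01 in 100% of 55668 probes, each row was centred on its median, and the column medians were 0.136, 0 and 0 (control last), so its scale and centring were found from the values.

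Control spots and spots called outliers, 168 to 174 on an array, were dropped; saturated spots numbered 0. A probe's spots were averaged as log2 processed signal and scaled on the 75th percentile of 22764 probes detected on every array. Tested were 26214 probes, detected in the control or in both Tie-2-Etv2 samples. Names came from a RefSeq table of GRCm38.p6, used for names and gene order (26687 probes by accession, 2536 by symbol, 474 by synonym, 25984 unmatched and named as in the files). The brightest tested probe, by the mean of both group means, stood for a gene. In 2-fold counts, values not above background were raised to the array's lowest detected level. The folds of Cyyr1 against the lowest detected signal use the same level, although some values not above background, such as that of Sox18 on the control, were not under it.

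limma 3.58.1 (lmFit, eBayes) in R 4.3.3 was run two-sided with Benjamini-Hochberg adjustment over all tested probes and checked on simulated data. The 10 genes, the lists and the rule for named genes were chosen with earlier results of these data known. The rule named all 10 genes, Etv2, Cdh5, Tek and Ptprc as checks, the 4 highest and 4 lowest of the other endothelial genes by the smaller difference, if detected on all 3 arrays, and the ETS factor genes. Neighbouring genes and repeat probes were chosen after values were seen. The number of arrays limits the precision of every value.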

Additional observations from a re-analysis of the deposited data

How the results depend on the processing

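No paired analysis was possible because there is a single control array, whose label gives no replicate number. Spike-in scaling and measured values with no floor were chosen after the data were seen, and the other alternatives were planned. With normexp background correction 5 of the 10 genes, 12 other endothelial genes and 310 genes in all were 2-fold higher on both arrays, and 609 of 19573 genes passed limma's adjusted test (245 higher, 364 lower); with no filter on dim probes 439 of 36084 passed (130 higher, 309 lower); the cause was not tested. Replicate 2 alone, and replicate 1 alone, put 753 and 1671 of all genes and 19 and 33 of the other endothelial genes 2-fold higher. The count of the 10 genes was 7 to 9 under the alternatives other than normexp, with 9 of them tested where detection on all 3 arrays was asked. Their median ran from 1.56 (replicate 2 alone) to 3.0 (replicate 1 alone). None of the 10 genes changed sign under any alternative run. Dropping the filter, or asking for detection on all 3 arrays, left the difference of a tested gene as it was. Scaling on all probes or on spike-in probes moved every gene's difference alike and by little. These settings could therefore hardly change a sign. Cyyr1, measured against a control reading not above background, had the widest range (1.44 to 5.84), followed by Mmrn2 (1.16 to 3.53). With a Tie-2-Etv2 replicate left out no residual degree of freedom remains, so those values have no test, and leaving out the control leaves no comparison.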
